A study of Homo sapiens with 90 samples.

Results

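The genes described here encode the DNA replication machinery, 40 genes chosen by symbol for known roles in DNA replication. The choice was made with earlier results of these data known. The genes were found by matching those symbols to the Ensembl IDs of a gene table of 53893 IDs. The symbols of 39 genes had a matching ID, and UHRF1, a factor that brings DNMT1 to newly made DNA, had none and is not analysed here. By role, 11 of the 39 belong to the helicase and its loading, 5 to helicase activation, 9 to the polymerases and primase, 7 to the sliding clamp, its loader and the joining of lagging-strand fragments, 4 to nucleotide supply and 3 to chromatin assembly and maintenance methylation. All 39 passed the filters on low counts in every line. A set of 11 genes, picked by role, is given with every library at 48 h, and the lines and further members shown beside them were chosen after their values were seen.

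The RNA-seq data come from 6 established human cancer lines and hold 90 libraries in 30 groups of 3. Each line was given 1 targeted kinase inhibitor for 48 h and for 7 days, that inhibitor together with THZ1 for 48 h, THZ1 alone for 48 h, and the vehicle DMSO (0.1%) for 48 h. The inhibitors were vemurafenib (a BRAF inhibitor, 1 uM) in A375 melanoma cells, GSK1120212 (trametinib, a MEK inhibitor, 200 nM) in A549 lung cells, crizotinib (which inhibits ALK, 250 nM) in H3122 lung cells, lapatinib (against EGFR and ERBB2, 100 nM) in N87 gastric cells, erlotinib (an EGFR inhibitor, 1 uM) in PC9 lung cells and BGJ398 (an FGFR inhibitor, 1 uM) in RT112 bladder cells. THZ1, a covalent CDK7 inhibitor with further activity against CDK12 and CDK13, was dosed at 25 nM in N87, 50 nM in A375 and H3122, 100 nM in PC9 and RT112 and 150 nM in A549. No vehicle group of 7 days is among these samples, so 7 days of drug was compared with 48 h of drug and the time in culture differs as well. The doses of THZ1 differ between lines, and each targeted drug was given to 1 line. Whether the 3 libraries of a group stem from separate cultures is not stated, and p-values within a line therefore cover the spread between these libraries, which may be technical.

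A eukaryotic replication origin is licensed in G1, when the origin recognition complex, CDC6 and CDT1 load the ring of MCM2 to MCM7 onto DNA. In S phase CDC45 and the GINS complex join the ring and turn it into the active helicase, polymerase alpha with primase starts each strand, and polymerases epsilon and delta extend it while held by the PCNA clamp. Most of these genes are classic targets of the E2F transcription factors, which are held in check by RB proteins until G1 cyclin kinases, downstream of growth factor signalling, release them.

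The libraries held 5.64 to 14.36 M expected counts each (median 11 M). Levels are CPM, the share of a library's total scaled to counts per M, and log2 changes and adjusted p-values are from quasi-likelihood fits in edgeR, and a gene was called where its p, adjusted by Benjamini-Hochberg over all genes tested, was under 0.05. No spike-in is described, so every level is a share of a library. In bulk RNA, fewer cells in S phase and less RNA of these genes per cell cannot be told apart. Libraries that stood somewhat apart within their groups were replicate 1 of some RT112 arms and replicate 1 of H3122 at 7 days. The THZ1 arm of RT112 has no replicate 1. The counts of calls at 7 days in both lines, and for the combination against BGJ398 in RT112, are given with and without them. Other results of these lines are given with them only. The tissue label of 1 A375 vemurafenib library differs from those of the other A375 libraries. Of the melanocyte markers, A375 under DMSO held SOX10 at 953 CPM and MITF at 33.4 CPM but PMEL, MLANA and TYR at 1.00, 0.74 and 0 CPM. NKX2-1 was at 227 CPM in H3122 but at 0.18 CPM in PC9 and 0.06 CPM in A549, and the gastric markers CLDN18 and TFF1 were at 0 and 0.03 CPM in N87. RT112 held the urothelial markers GATA3 and UPK2 at 286 and 28.6 CPM. These genes are part of lists of 6 melanocyte, 5 lung, 6 gastric and 6 urothelial markers. The remaining markers are not given here, so the values shown do not settle the identity of a line. Markers of blood and endothelium summed to 0.253 to 62.3 CPM per library, with the highest sum in H3122 under crizotinib at 48 h.

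Because many of these genes are known E2F targets, their promoters were read from RefSeq (build GRCh38.p14, 250 bases before to 50 after the start site), which held 35 of the 39. The E2F words TTTCCCGC, TTTCGCGC, TTTGCCGC and TTTGGCGC, on either strand, occurred in 18 of the 35 (51.4%), against 3.33% of the 27305 promoters of the same length. Matches can overlap, as TTTGGCGC does with TTTCGCGC on the other strand. Before the start site alone the counts were 12 of 35 (34.3%), against 2.79% of all promoters. The CCAAT word, on either strand, was in 19 of 35 (54.3%), against 35.7% of all, and TTTGAA, a word of cell cycle promoters bound late in the cycle, in 1 (2.86%), against 15.4%. A match is a string of letters and was not tested as a binding site. The 200 bases before the start site, which lie upstream of the first exon, are shown for 5 genes, 5′ to 3′ along the gene, with E2F words in capitals. MCM6, GINS2 and PCNA hold a word there, while MCM10 and POLD2, which had the largest and the smallest change at 48 h across lines, hold none. MCM6 (chr2:135876444-135876643, minus strand) has 4 matches, in 2 overlapping pairs, GINS2 (chr16:85688955-85689154, minus strand) and PCNA (chr20:5126623-5126822, minus strand) have 1 each, and the windows of MCM10 (chr10:13161358-13161557, plus strand) and POLD2 (chr7:44123549-44123748, minus strand) are all in lower case.
MCM6: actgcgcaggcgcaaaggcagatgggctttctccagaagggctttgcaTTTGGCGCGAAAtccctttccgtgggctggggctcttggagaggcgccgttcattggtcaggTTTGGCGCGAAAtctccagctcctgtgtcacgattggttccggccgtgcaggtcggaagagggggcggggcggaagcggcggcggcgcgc
GINS2: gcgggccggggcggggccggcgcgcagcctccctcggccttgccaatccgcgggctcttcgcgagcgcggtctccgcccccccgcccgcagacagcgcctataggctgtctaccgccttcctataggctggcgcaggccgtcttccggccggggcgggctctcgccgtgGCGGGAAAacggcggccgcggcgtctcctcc
PCNA: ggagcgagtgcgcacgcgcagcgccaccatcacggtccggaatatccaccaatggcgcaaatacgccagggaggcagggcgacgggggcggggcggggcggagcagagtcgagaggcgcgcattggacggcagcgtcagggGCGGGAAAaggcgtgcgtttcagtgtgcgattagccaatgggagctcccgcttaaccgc
MCM10: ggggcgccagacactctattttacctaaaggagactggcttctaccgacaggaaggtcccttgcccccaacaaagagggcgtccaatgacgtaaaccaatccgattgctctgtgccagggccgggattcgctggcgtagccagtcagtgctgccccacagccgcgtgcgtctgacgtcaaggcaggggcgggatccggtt
POLD2: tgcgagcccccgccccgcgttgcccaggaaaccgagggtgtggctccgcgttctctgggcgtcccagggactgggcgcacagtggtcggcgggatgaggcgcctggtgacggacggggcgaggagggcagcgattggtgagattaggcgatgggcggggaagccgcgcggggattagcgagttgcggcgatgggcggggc

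The genes with and without a word had 48 h changes of similar size. The median over genes of the 48 h change (each gene's median over the 6 lines, log2) was -2.15 for the 18 genes with an E2F word, with a range of -3.38 to -1.51, and -2.01 for the 17 without, with a range of -3.33 to -1.15. The ranges overlap over most of their length, and no test was made. Of the genes that fell most, POLE2 and GINS2 hold an E2F word, while MCM10, CDC45 and RRM2 hold none in the whole window.

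Under DMSO the machinery was far from equal in level. Per kilobase of transcript, the median over the 6 lines was highest for the clamp PCNA at 186 CPM per kb, followed by the helicase subunit MCM7 at 139, thymidine kinase TK1 at 130, thymidylate synthase TYMS at 116 and the polymerase delta subunit POLD2 at 106 CPM per kb. Within the MCM ring the levels ran down from MCM7 over MCM4 (89.6), MCM2 (69.8), MCM3 (64.5) and MCM5 (50.2) to MCM6 (29.3 CPM per kb), although the proteins form a ring of equal parts. At the low end stood MCM10 at 9.31, POLA1 at 8.74, GINS3 at 8.66, the assembly factor CHAF1B at 7.90 and POLE2 at 6.13 CPM per kb. Lines spread widely around these medians: RRM2 ranged over the lines from 36.2 to 195 CPM per kb and TK1 from 107 to 335, and the ranges of neighbours in this order overlap. Lengths are medians of coding transcripts in GENCODE v29 and not those of the authors' annotation.

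Summed over the 39 genes, the machinery took 1014, 1115 and 1070 CPM of the vemurafenib libraries in A375, against 4305, 4371 and 4353 CPM of the DMSO libraries. The erlotinib libraries of PC9 held 699, 694 and 685 CPM, against 3654, 3702 and 3530 CPM under DMSO. In H3122 the crizotinib libraries held 5285, 5416 and 5345 CPM, against 5591, 5624 and 5617 CPM under DMSO. The groups did not overlap in any of these lines, but the distance in H3122 was small beside that in the others. The plot of summed levels shows that A549, N87 and RT112 lay near A375 and PC9, with sums of 749, 739 and 716 CPM under trametinib, 1058, 979 and 973 CPM under lapatinib and 1401, 1532 and 1568 CPM under BGJ398.

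**Figure D1:**
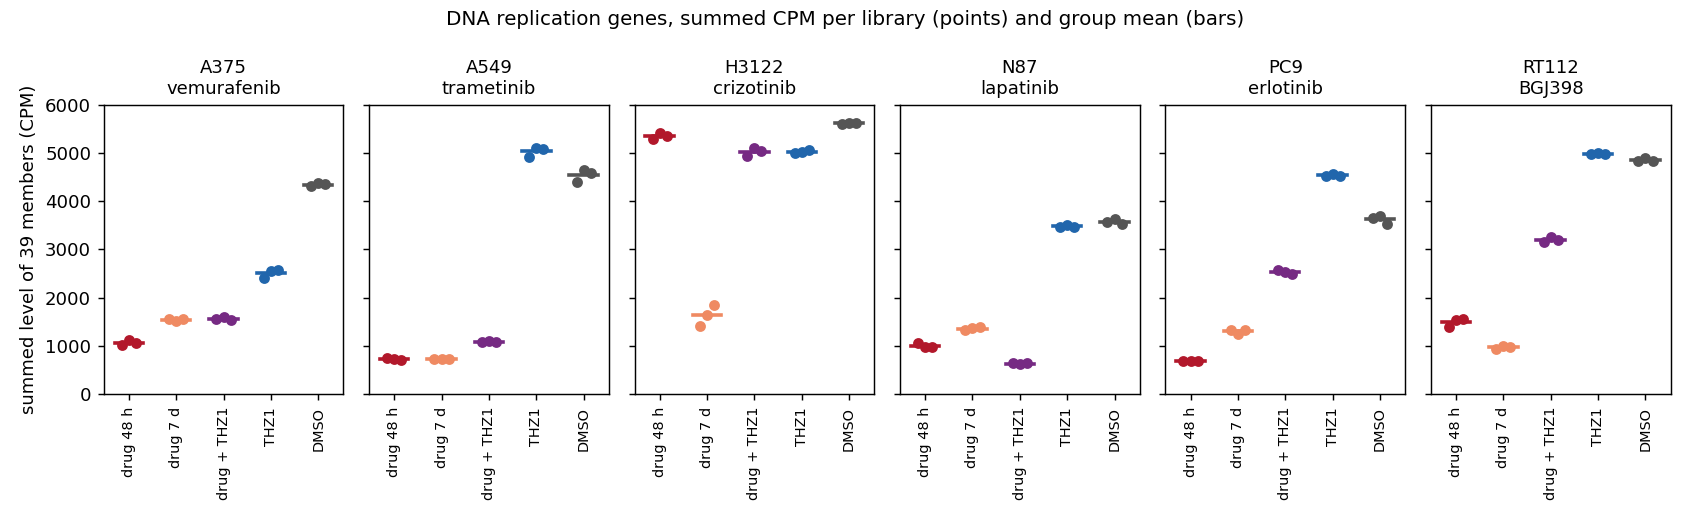
Summed CPM of the 39 replication genes in every library (points) and the group mean (bars), by cell line and arm, on an axis that starts at 0. Under the targeted drug at 48 h the sums lie between 685 and 1568 CPM in all lines but H3122, where they lie between 5285 and 5416 CPM.

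The 48 h comparison asked what the targeted inhibitor did to the machinery. In 5 of the 6 lines every member was lower under the targeted drug than under DMSO, and in H3122 most changes were small. The 39 of 39 called lower stood against 32.9% of all genes tested in A375, 37.4% in A549, 32.8% in PC9, 35.4% in N87 and 35.1% in RT112. The median log2 change over members was -2.60 in A549, -2.54 in PC9, -2.25 in A375, -1.90 in N87 and -1.76 in RT112, while the median of all genes tested lay between 0.00 and 0.04. With the line as the replicate, all 39 were called lower as well (background 18.5% lower and 18.6% higher), with a median of -1.77 and a range from -2.81 for MCM10 to -0.97 for POLD2.

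**Figure D2:**
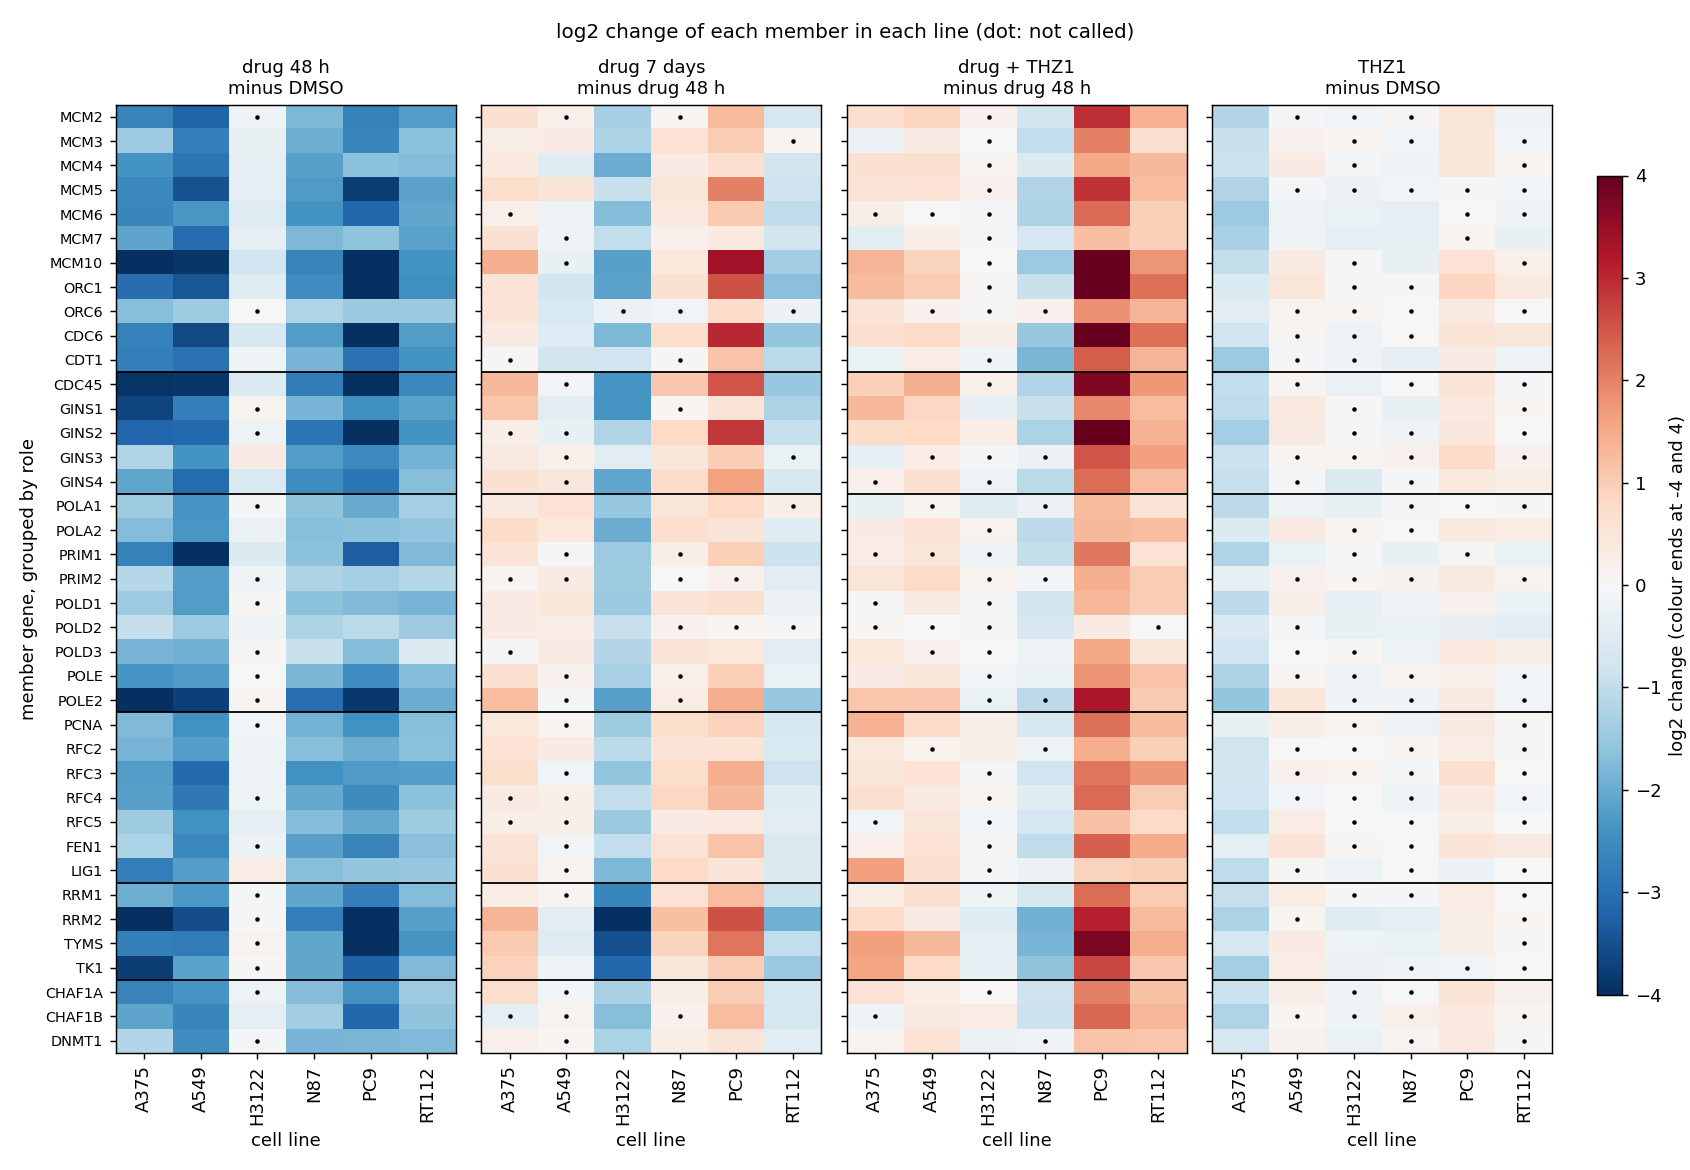
Log2 change of each of the 39 genes (rows, grouped by role) in each of the 6 lines (columns) for 4 comparisons, each as the first-named group minus the second, with blue for lower and red for higher and a dot where the gene was not called. In the first panel the H3122 column is pale while the other 5 are blue throughout, and in the second panel the H3122 column is blue.

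Among the loading factors, the MCM ring, MCM10, ORC1, ORC6, CDC6 and CDT1 fell in all 5 lines, with role medians from -3.06 in A549 to -2.15 in RT112. MCM5 is a subunit of the helicase ring. MCM5 was measured at 20.0, 22.4 and 20.4 CPM under vemurafenib in A375, against 132, 120 and 120 CPM under DMSO. MCM5 stood at 14.9, 14.3 and 12.4 CPM under trametinib in A549, against 155, 154 and 162 CPM under DMSO. MCM5 had 9.01, 9.46 and 9.0 CPM under erlotinib in PC9, against 135, 144 and 138 CPM under DMSO. Every drug library lay below every DMSO library, with log2 changes of -3.79 (SE 0.06, adjusted p = 1.35e-21) in PC9 and -3.47 in A549. MCM5 held 32.6, 28.1 and 32.9 CPM under lapatinib in N87, against 142, 143 and 139 CPM under DMSO. MCM5 was at 70.3, 84.7 and 79.5 CPM under BGJ398 in RT112, against 309, 311 and 309 CPM under DMSO. MCM5 gave 279, 272 and 276 CPM under crizotinib in H3122, against 327, 330 and 332 CPM under DMSO. The same separation was seen in N87 and RT112, and in H3122 too the groups did not overlap although the distance was far smaller. The H3122 change of MCM5 was -0.36 (SE 0.09, adjusted p = 0.00463).

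MCM10, which helps switch the loaded helicase on, was at the low end of levels per kilobase under DMSO. MCM10 was measured at 1.68, 2.38 and 1.73 CPM under vemurafenib in A375, against 44.3, 42.7 and 47.9 CPM under DMSO. MCM10 stood at 2.02, 2.42 and 3.75 CPM under trametinib in A549, against 38.7, 42.3 and 41.7 CPM under DMSO. MCM10 had 0.258, 1.18 and 0.819 CPM under erlotinib in PC9, against 30.6, 34.0 and 31.0 CPM under DMSO. In PC9 the 3 erlotinib libraries spread several-fold among themselves while staying far below DMSO. MCM10 held 8.0, 10.2 and 10.1 CPM under lapatinib in N87, against 57.3, 55.4 and 55.2 CPM under DMSO. MCM10 was at 6.11, 10.5 and 8.70 CPM under BGJ398 in RT112, against 41.1, 39.2 and 38.1 CPM under DMSO. MCM10 gave 28.1, 24.5 and 30.1 CPM under crizotinib in H3122, against 42.4, 46.2 and 42.8 CPM under DMSO. MCM10 fell in H3122 as well, and no drug library overlapped a DMSO library in any line. Its log2 change was -5.29 (SE 0.17, adjusted p = 1.34e-16) in PC9 and -0.77 (SE 0.09, adjusted p = 2.93e-06) in H3122.

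CDC6 and CDT1 bring the ring to the origin. CDC6 stood at 11.1, 14.1 and 12.2 CPM under vemurafenib in A375, against 79.2, 83.6 and 80.0 CPM under DMSO. CDC6 had 9.02, 9.42 and 10.1 CPM under trametinib in A549, against 115, 126 and 116 CPM under DMSO. CDC6 held 1.12, 1.48 and 2.91 CPM under erlotinib in PC9, against 69.7, 70.7 and 66.2 CPM under DMSO. The erlotinib libraries of PC9 lay far below those of the other lines under their targeted drugs. CDC6 was at 56.3, 53.2 and 47.3 CPM under lapatinib in N87, against 229, 236 and 225 CPM under DMSO. CDC6 gave 27.8, 19.7 and 24.1 CPM under BGJ398 in RT112, against 105, 104 and 96.7 CPM under DMSO. CDC6 was measured at 58.8, 55.4 and 56.3 CPM under crizotinib in H3122, against 87.8, 84.6 and 76.1 CPM under DMSO. CDC6 fell in all 6 lines and its groups overlapped in none. CDC6 changed by -5.09 (SE 0.14, adjusted p = 6.57e-18) in PC9 and by -0.64 (SE 0.08, adjusted p = 1.82e-06) in H3122. CDT1 had 15.8, 13.8 and 12.6 CPM under vemurafenib in A375, against 92.3, 96.5 and 88.7 CPM under DMSO. CDT1 held 10.4, 12.1 and 10.7 CPM under trametinib in A549, against 81.8, 91.5 and 94.8 CPM under DMSO. CDT1 was at 10.1, 10.8 and 10.8 CPM under erlotinib in PC9, against 83.7, 97.8 and 92.7 CPM under DMSO. These 3 lines were close to each other for CDT1, unlike for CDC6. CDT1 gave 17.5, 15 and 14.5 CPM under lapatinib in N87, against 51.1, 54.1 and 55.4 CPM under DMSO. CDT1 was measured at 23.9, 27.7 and 25.4 CPM under BGJ398 in RT112, against 114, 125 and 120 CPM under DMSO. CDT1 stood at 57.6, 53.1 and 58.3 CPM under crizotinib in H3122, against 59.1, 58.3 and 61.1 CPM under DMSO. In H3122 the CDT1 groups overlapped. CDT1 in H3122 changed by -0.18 (SE 0.07, adjusted p = 0.0407). ORC6, the smallest subunit of the origin recognition complex, was the loading gene with the smallest fall across lines at -1.13, and ORC1 of the same complex changed by -2.36 across lines.

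CDC45 and the GINS subunits, which complete the helicase, had role medians of -3.17 in A375, -3.09 in A549 and -2.49 in N87. GINS2 held 5.20, 3.34 and 3.63 CPM under vemurafenib in A375, against 33.6, 38.7 and 35.0 CPM under DMSO. GINS2 was at 4.13, 4.58 and 6.07 CPM under trametinib in A549, against 42.9, 42.8 and 41.7 CPM under DMSO. GINS2 gave 0.944, 0.985 and 0.819 CPM under erlotinib in PC9, against 33.5, 29.3 and 30.1 CPM under DMSO. The erlotinib libraries of PC9 were near 1 CPM. GINS2 was measured at 6.63, 6.86 and 6.83 CPM under lapatinib in N87, against 44.7, 52.3 and 45.7 CPM under DMSO. GINS2 stood at 9.20, 9.50 and 10.5 CPM under BGJ398 in RT112, against 46.9, 45.8 and 44.4 CPM under DMSO. GINS2 had 19.8, 19.3 and 20.3 CPM under crizotinib in H3122, against 21.1, 22.1 and 19.8 CPM under DMSO. In H3122 the GINS2 groups overlapped, and no change was called there. GINS2 changed by -4.93 (SE 0.18, adjusted p = 7.18e-16) in PC9, against -0.19 (SE 0.10, adjusted p = 0.131) in H3122. CDC45, named for the second largest median fall over the lines, was at 0.839, 2.86 and 2.07 CPM under vemurafenib in A375, against 28.6, 31.6 and 30 CPM under DMSO. In PC9 CDC45 was at 1.37, 0.788 and 1.18 CPM under erlotinib, against 21.3, 26.5 and 20.6 CPM under DMSO. GINS3 in A375 fell least of its complex, with -1.21.

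The polymerase genes had a median of -1.35 across lines over 9 genes, beside -2.02 for the 11 loading genes. This difference between roles was not tested. POLA1 is the catalytic subunit of polymerase alpha. POLA1 was at 22.2, 25.3 and 23.4 CPM under vemurafenib in A375, against 60.6, 59.9 and 66.1 CPM under DMSO. POLA1 gave 15.1, 14.7 and 13.9 CPM under trametinib in A549, against 72.6, 76.2 and 81.2 CPM under DMSO. POLA1 was measured at 9.62, 11.2 and 10.6 CPM under erlotinib in PC9, against 47.5, 45.3 and 48.0 CPM under DMSO. The POLA1 groups were separated in each. POLA1 stood at 20.4, 14.6 and 15.4 CPM under lapatinib in N87, against 48.1, 48.0 and 48.5 CPM under DMSO. POLA1 had 13.4, 16.3 and 18.7 CPM under BGJ398 in RT112, against 38.0, 39.9 and 33.3 CPM under DMSO. POLA1 held 26.5, 28.1 and 28.9 CPM under crizotinib in H3122, against 26.2, 26.5 and 28.7 CPM under DMSO. POLA1 was not called in H3122, where the groups overlapped. POLD2, an accessory subunit of polymerase delta, had the smallest change across lines. POLD2 gave 66.5, 73.1 and 75.0 CPM under vemurafenib in A375, against 136, 138 and 139 CPM under DMSO. POLD2 was measured at 62.0, 59.6 and 66.2 CPM under trametinib in A549, against 168, 173 and 178 CPM under DMSO. POLD2 stood at 108, 107 and 102 CPM under erlotinib in PC9, against 243, 251 and 236 CPM under DMSO. The POLD2 groups did not overlap in any of these. POLD2 had 70.5, 61.1 and 65.8 CPM under lapatinib in N87, against 141, 146 and 146 CPM under DMSO. POLD2 held 66.6, 71.2 and 76.6 CPM under BGJ398 in RT112, against 166, 179 and 176 CPM under DMSO. POLD2 was at 220, 222 and 225 CPM under crizotinib in H3122, against 231, 238 and 228 CPM under DMSO. Even so, every drug library was below every DMSO library, H3122 included. POLD2 changed by -0.94 (SE 0.06, adjusted p = 3.59e-11) in A375 and by -0.16 (SE 0.05, adjusted p = 0.0124) in H3122.

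POLE2, the accessory subunit of polymerase epsilon, had the largest median fall over the lines. It was at 0.168, 0.635 and 0.519 CPM under vemurafenib, against 8.25, 8.03 and 8.13 CPM under DMSO in A375. In PC9 it was at 0.343, 0.493 and 0.455 CPM under erlotinib, against 6.25, 7.81 and 6.66 CPM under DMSO. Its log2 changes were -4.11 and -3.85 in these lines, while POLE changed by -2.37 and -2.48. PRIM2, the large primase subunit, and POLD3, an accessory subunit of polymerase delta, were with POLD2 the members that fell least over the lines. In RT112 POLD3 was at 25.6, 27.2 and 25.1 CPM under BGJ398, against 34.2, 32.7 and 34.2 CPM under DMSO (-0.54, adjusted p = 2.68e-06). PRIM2 in A375 was at 5.87, 5.40 and 6.48 CPM under vemurafenib, against 12, 14.3 and 13.2 CPM under DMSO. PRIM1, the catalytic primase subunit, fell far more in A549, to 2.61, 1.88 and 2.33 CPM under trametinib, against 36.2, 40.4 and 37.8 CPM under DMSO.

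PCNA is the sliding clamp. PCNA was measured at 60.3, 64.8 and 58.4 CPM under vemurafenib in A375, against 189, 221 and 213 CPM under DMSO. PCNA stood at 65.4, 70.4 and 65.4 CPM under trametinib in A549, against 341, 402 and 359 CPM under DMSO. PCNA had 40.1, 37.7 and 42.2 CPM under erlotinib in PC9, against 242, 245 and 224 CPM under DMSO. PCNA kept a larger share of its DMSO level in A375 than in A549 and PC9. PCNA held 59.8, 56.4 and 49.5 CPM under lapatinib in N87, against 203, 196 and 181 CPM under DMSO. PCNA was at 86.5, 101 and 104 CPM under BGJ398 in RT112, against 287, 280 and 276 CPM under DMSO. PCNA gave 256, 270 and 272 CPM under crizotinib in H3122, against 276, 263 and 265 CPM under DMSO. In H3122 the PCNA groups overlapped. The PCNA change was -2.43 (SE 0.05, adjusted p = 2.7e-19) in PC9, against -0.11 (SE 0.06, adjusted p = 0.145) in H3122. The clamp loader genes RFC2 to RFC5, the flap nuclease FEN1 and the ligase LIG1 were called lower in all 5 lines, with LIG1 reaching -2.75 in A375 and RFC3 -3.10 in A549. Several members share sequence or overlap other genes, and the counting is not stated to use strand. PCNA and RRM2 each have 3 pseudogenes by name, TYMS 2, and POLD2, RFC3, RFC5 and FEN1 1 each. TYMS overlaps ENOSF1 and TYMSOS, MCM2 overlaps TPRA1, MCM7 overlaps AP4M1, RFC4 overlaps EIF4A2, FEN1 overlaps TMEM258 and FADS2, PRIM1 overlaps HSD17B6 and NACA, RFC5 overlaps WSB2, CHAF1A overlaps UBXN6, RRM1 overlaps RRM1-AS1, GINS2 overlaps GSE1, DNMT1 overlaps S1PR2 and CHAF1B overlaps MORC3, so their values are less certain.

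Nucleotide supply genes also fell, with role medians of -3.83 in PC9 and -3.26 in A375. RRM2 is the small subunit of ribonucleotide reductase, which makes deoxynucleotides. RRM2 stood at 9.57, 19.4 and 13.5 CPM under vemurafenib in A375, against 231, 236 and 254 CPM under DMSO. RRM2 had 20.8, 18.5 and 19.8 CPM under trametinib in A549, against 224, 242 and 236 CPM under DMSO. RRM2 held 4.89, 6.11 and 5.09 CPM under erlotinib in PC9, against 138, 140 and 129 CPM under DMSO. None of these RRM2 groups overlapped. RRM2 was at 20.5, 20.0 and 19.5 CPM under lapatinib in N87, against 124, 120 and 129 CPM under DMSO. RRM2 gave 57.4, 55.9 and 61.9 CPM under BGJ398 in RT112, against 233, 232 and 234 CPM under DMSO. RRM2 was measured at 673, 708 and 709 CPM under crizotinib in H3122, against 667, 673 and 665 CPM under DMSO. In H3122 the RRM2 groups overlapped, at levels above those of the other lines under DMSO. RRM2 changed by -4.53 (SE 0.07, adjusted p = 1.35e-21) in PC9, against -0.04 (SE 0.08, adjusted p = 0.691) in H3122. TYMS makes thymidylate. TYMS had 29, 29.8 and 25.5 CPM under vemurafenib in A375, against 180, 185 and 191 CPM under DMSO. TYMS held 26.2, 23.4 and 22.7 CPM under trametinib in A549, against 167, 174 and 169 CPM under DMSO. TYMS was at 5.25, 5.72 and 5.73 CPM under erlotinib in PC9, against 138, 136 and 120 CPM under DMSO. Each of these groups is separated from its DMSO group. TYMS gave 22.6, 20.2 and 17.4 CPM under lapatinib in N87, against 82.8, 76.9 and 76.7 CPM under DMSO. TYMS was measured at 28.0, 32.7 and 30.5 CPM under BGJ398 in RT112, against 138, 141 and 140 CPM under DMSO. TYMS stood at 213, 227 and 229 CPM under crizotinib in H3122, against 188, 190 and 190 CPM under DMSO. TYMS in H3122 lay higher under crizotinib in every library, and the change was not called. RRM1 was the member of this role with the smallest fall across lines, at -1.61, and TK1 stood between, at -1.89.

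DNMT1, which copies methylation onto new strands, and both subunits of the chromatin assembly factor fell too. DNMT1 held 181, 193 and 196 CPM under vemurafenib in A375, against 434, 426 and 410 CPM under DMSO. DNMT1 was at 42.2, 41.5 and 39.5 CPM under trametinib in A549, against 231, 232 and 238 CPM under DMSO. DNMT1 gave 51.0, 48.6 and 46.7 CPM under erlotinib in PC9, against 193, 191 and 186 CPM under DMSO. DNMT1 fell less in A375 than in A549 and PC9. DNMT1 was measured at 79.8, 69.7 and 74.1 CPM under lapatinib in N87, against 260, 251 and 248 CPM under DMSO. DNMT1 stood at 80.0, 91.3 and 93.1 CPM under BGJ398 in RT112, against 280, 268 and 265 CPM under DMSO. DNMT1 had 334, 341 and 339 CPM under crizotinib in H3122, against 317, 326 and 338 CPM under DMSO. In H3122 the DNMT1 groups overlapped, and DNMT1 was not called. CHAF1A and CHAF1B changed by -2.67 and -2.11 in A375 and by -2.43 and -3.15 in PC9.

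**Figure D3:**
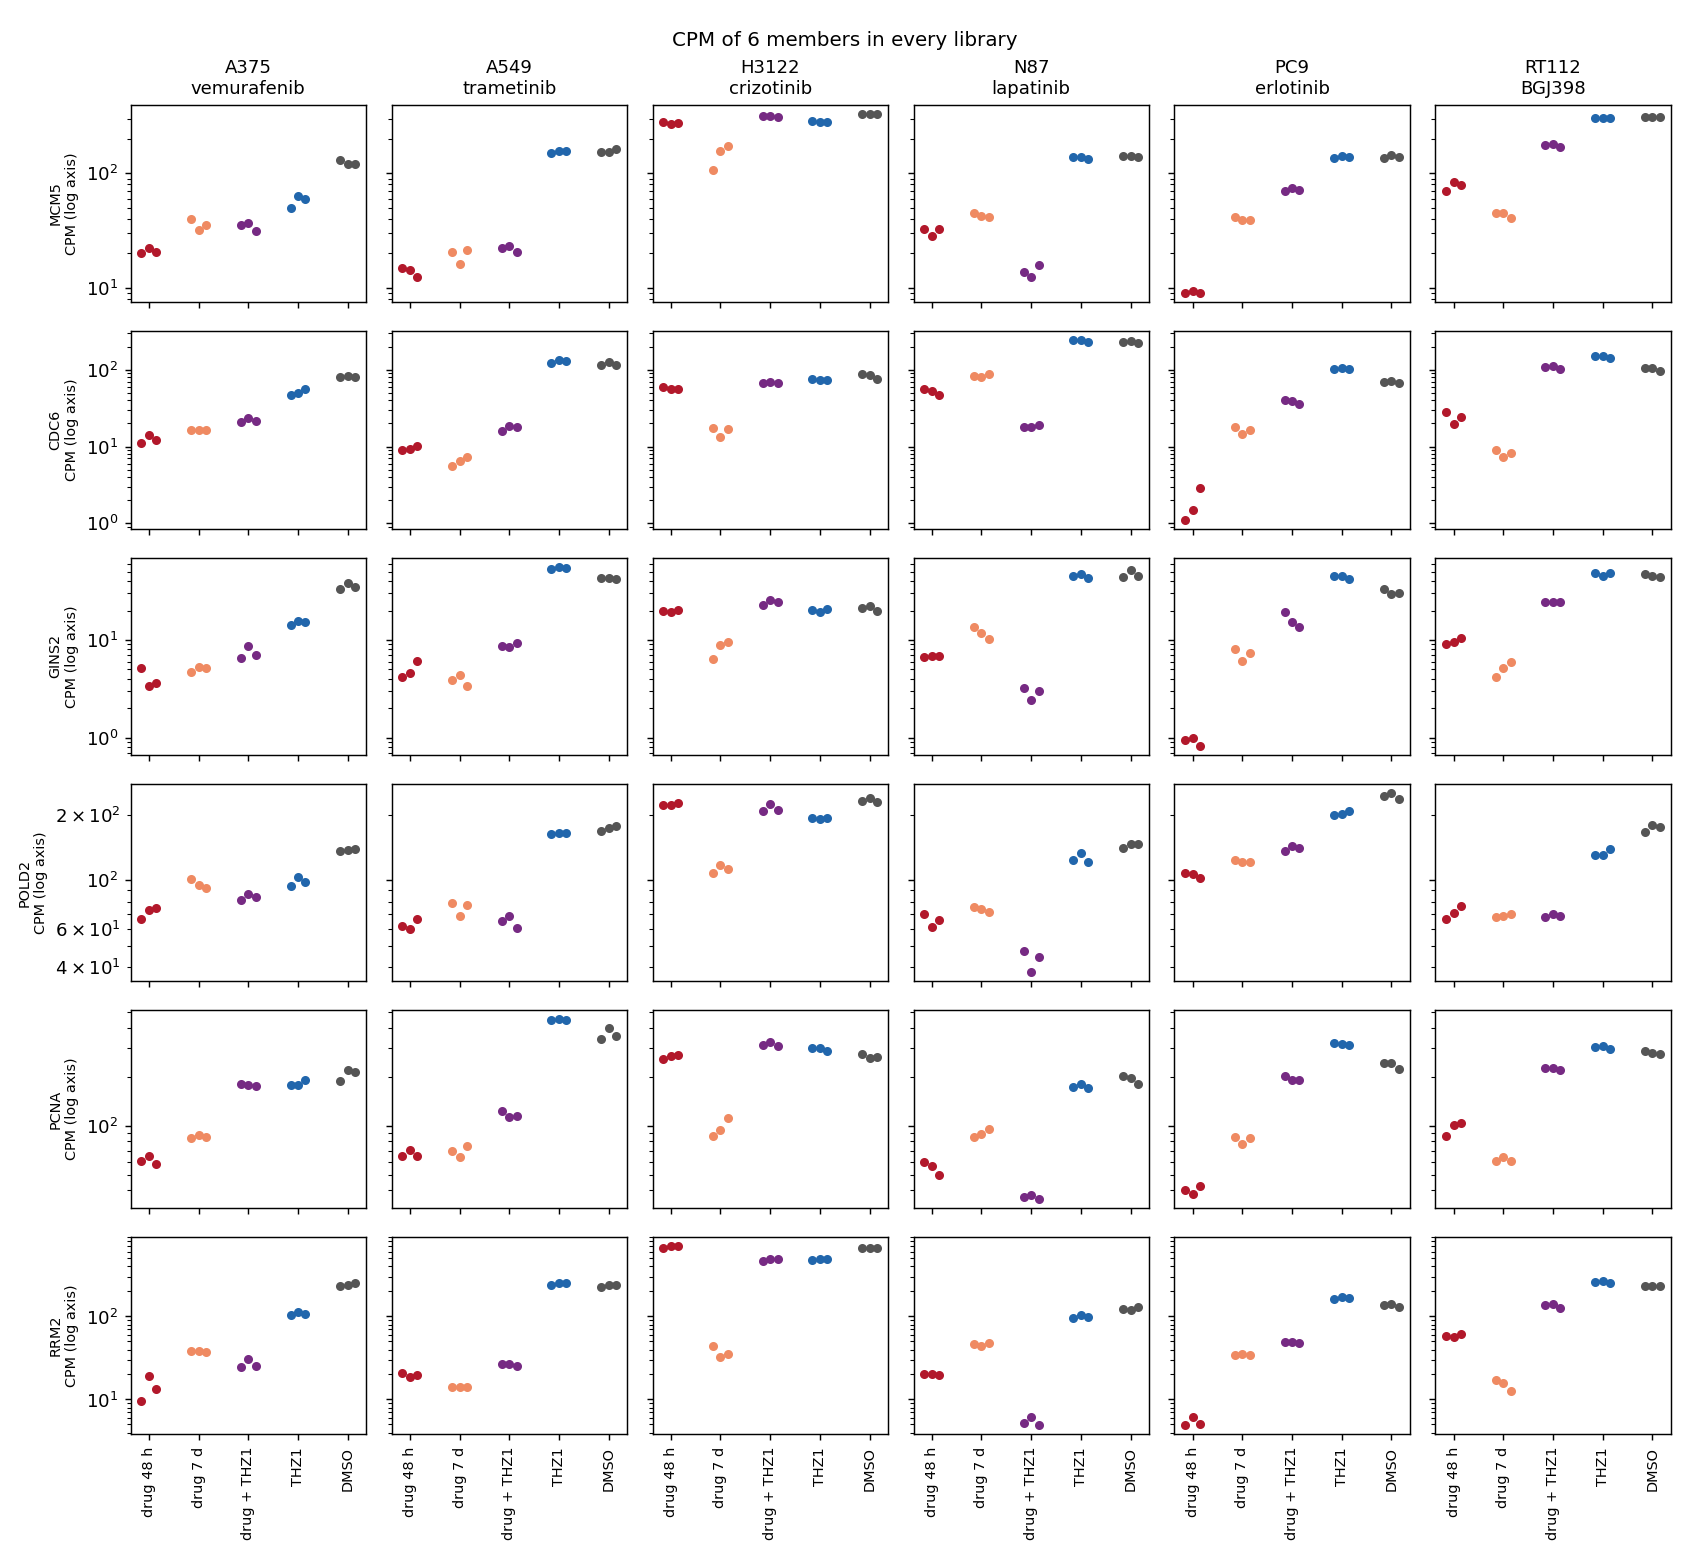
CPM in every library (points, log axes) of MCM5, CDC6, GINS2, POLD2, PCNA and RRM2, by line and arm. The drug points at 48 h sit below the DMSO points in every panel of A375, A549, N87, PC9 and RT112, down to 0.819 CPM for GINS2 under erlotinib in PC9.

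H3122 was the exception at 48 h. Crizotinib lowered 18 of 39 members (background 24.1%) and raised 2 (background 22.0%), GINS3 by 0.32 and LIG1 by 0.29 on the log2 scale, with a median of -0.18. Fewer members were called lower when libraries were scaled by their totals alone, which moved the median of all genes by 0.1. CPM values are scaled by those totals too. Of the loading genes, 9 of 11 were lower, from -0.77 for MCM10, and none of the 4 nucleotide supply genes was called. Set against the mean change of the other 5 lines in a joint fit of all 90 libraries, 39 of 39 members changed less negatively in H3122, with a median difference of 2.04 (background 20.0%). For RRM2 the difference was 3.34 (SE 0.08, adjusted p = 9.08e-47). The other lines also differed from one another. Members were lower than in the other 5 lines in A549 (35 genes, background 21.2%, median -0.85) and PC9 (32 genes, background 19.6%, median -0.89, with 2 higher, background 17.6%). In A375 23 were lower (20.1%) and 4 higher (20.2%), N87 had 12 lower (19.9%) and 9 higher (15.3%), and RT112 had 5 lower (16.9%) and 17 higher (18.9%). H3122 is part of the mean in each of the contrasts for the other lines.

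Other gene groups moved in H3122 at 48 h. The summed level of 20 mitosis genes was 4130, 4200 and 4360 CPM under crizotinib, against 2950, 2940 and 2980 CPM under DMSO, with every crizotinib library above every DMSO library. Of these genes 15 were higher and 0 lower (backgrounds 22.0% and 24.1%), with a median of 0.34. The summed level of 6 markers of blood and endothelium was 57.6, 62.3 and 58.5 CPM under crizotinib, against 11.9, 10.5 and 11.9 CPM under DMSO. Most of it was CDH5, an adhesion protein of endothelial cells, at 49.6, 51.8 and 50.2 CPM under crizotinib, against 10.3, 9.18 and 10.5 CPM under DMSO, while PTPRC, which marks blood cells, was at 0 in all H3122 libraries. The part of these genes in the H3122 result was not tested.

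Spearman's coefficient between the 48 h changes of the 39 genes was 0.56 to 0.73 for the 10 pairs of lines without H3122 and 0.11 to 0.51 for the 5 pairs with H3122. The libraries of different lines are separate, while the genes share their length and level across lines, so these coefficients are descriptions across genes.

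Other gene lists of the cell cycle were counted across lines in the same fit, in which 18.5% of all genes were lower and 18.6% higher. Of 33 other replisome and origin genes, 30 were lower and 1 higher under the targeted drug, with a median of -1.35. DSCC1, part of an alternative clamp loader, changed by -2.46 (SE 0.55, adjusted p = 0.00182) and the checkpoint mediator CLSPN by -2.37, against ORC2 at -0.44, RPA1 of the single-strand binding complex at -0.63 and the large clamp loader subunit RFC1 at -0.48. POLD4, the smallest polymerase delta subunit, was the one that rose, by 0.57 (SE 0.18, adjusted p = 0.0177), and MCM9 was at 0.00. Of 19 other nucleotide genes 15 were lower (median -0.88), led by NME1 at -1.81 and the purine enzyme PAICS at -1.58. RRM2B, the reductase subunit used outside S phase, and SAMHD1, which breaks deoxynucleotides down, were at 0.10 and 0.01 and not called.

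Of 28 G1/S control genes, 20 were lower and 2 higher (median -0.78). The phosphatase CDC25A changed by -2.67 (SE 0.53, adjusted p = 0.00073), E2F2 by -2.22, E2F1 by -2.21, cyclin E2 (CCNE2) by -1.80 and cyclin D1 (CCND1) by -1.65. The kinase inhibitor CDKN1B and the RB relative RBL2 were the ones that rose, by 0.72 (SE 0.13, adjusted p = 0.000312) and 0.47, and CDKN1A was not called at 0.12 (adjusted p = 0.826). Of 20 mitosis genes 19 were lower (median -1.94), among them AURKB at -2.28, BUB1B at -2.14 and CENPF at -1.69, and KIF20A at -1.47 was not called, although in H3122 alone the list went the other way.

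The second comparison set 7 days of the targeted drug against 48 h. The lines went different ways: members rose in A375, N87 and PC9 and fell in H3122 and RT112, while calls in A549 did not clearly exceed the background. In H3122 38 of 39 were lower at 7 days (background 33.4%), with a median of -1.48, and in RT112 34 (background 18.5%), with a median of -0.68. In PC9 37 were higher (background 25.7%, median 0.99), in A375 31 (background 18.6%, median 0.56) and in N87 29 (background 22.3%, median 0.48). A549 had 10 lower (background 23.7%) and 8 higher (background 27.6%), near or below these shares. Across lines none was called, with 0% of all genes called in either direction, and 761 of 11875 genes were under an unadjusted p of 0.05, no member among them, and DESeq2 called 0 members.

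The fall that H3122 lacked at 48 h was present at 7 days. RRM2 was measured at 43.6, 32.3 and 35.0 CPM after 7 days of crizotinib in H3122, against 673, 708 and 709 CPM after 48 h of crizotinib. TYMS stood at 20.1, 15.9 and 20.1 CPM after 7 days of crizotinib in H3122, against 213, 227 and 229 CPM after 48 h of crizotinib. TK1 had 40.6, 46.9 and 52.7 CPM after 7 days of crizotinib in H3122, against 421, 443 and 423 CPM after 48 h of crizotinib. In all 3 of these nucleotide genes the 7-day libraries all lay below the 48 h libraries, with log2 changes of -4.19 (SE 0.09, adjusted p = 6.38e-17), -3.53 and -3.15. POLA1 held 8.62, 10.1 and 9.56 CPM after 7 days of crizotinib in H3122, against 26.5, 28.1 and 28.9 CPM after 48 h of crizotinib. MCM5 was at 107, 156 and 174 CPM after 7 days of crizotinib in H3122, against 279, 272 and 276 CPM after 48 h of crizotinib. PCNA gave 86.6, 93.5 and 111 CPM after 7 days of crizotinib in H3122, against 256, 270 and 272 CPM after 48 h of crizotinib. The groups did not overlap for these, and replicate 1 was the lowest 7-day library for each. POLD2 changed by -0.93, DNMT1 by -1.28, CDT1 by -0.79 and GINS3 by -0.42, while ORC6 at -0.23 (adjusted p = 0.0517) was the member not called. The 7-day sums over the 39 genes were 1421, 1639 and 1842 CPM in H3122, with replicate 1 lowest, and without that library 39 of 39 members were called lower.

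PC9 moved the other way. MCM10 was measured at 9.33, 7.47 and 8.17 CPM after 7 days of erlotinib in PC9, against 0.258, 1.18 and 0.819 CPM after 48 h of erlotinib. CDC6 stood at 17.8, 14.5 and 16.2 CPM after 7 days of erlotinib in PC9, against 1.12, 1.48 and 2.91 CPM after 48 h of erlotinib. GINS2 had 8.15, 6.05 and 7.37 CPM after 7 days of erlotinib in PC9, against 0.944, 0.985 and 0.819 CPM after 48 h of erlotinib. Each 7-day library was above each 48 h library, with log2 changes of 3.37 (SE 0.22, adjusted p = 8.2e-11), 3.01 and 2.84. For these genes the 7-day libraries of PC9 stayed below the DMSO libraries. The member nearest to its DMSO mean after 7 days of erlotinib was ORC6, at 59.4%. PC9 RRM2 reached 34.3, 35.2 and 34.0 CPM after 7 days of erlotinib, TYMS 26.7, 25.5 and 27.3 CPM and MCM5 41.2, 39.4 and 39.1 CPM. POLD2 at 0.08 and PRIM2 at 0.17 were not called in PC9. In A375 RRM2 was at 38.6, 38.2 and 37.1 CPM after 7 days of vemurafenib, against 9.57, 19.4 and 13.5 CPM after 48 h (1.35), and in N87 it was at 46.2, 43.6 and 47.4 CPM after 7 days of lapatinib, against 20.5, 20.0 and 19.5 CPM after 48 h (1.2).

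In RT112 the fall went on. RRM2 held 17.4, 15.9 and 12.5 CPM after 7 days of BGJ398 in RT112, against 57.4, 55.9 and 61.9 CPM after 48 h of BGJ398. CDC6 was at 9.01, 7.33 and 8.17 CPM after 7 days of BGJ398 in RT112, against 27.8, 19.7 and 24.1 CPM after 48 h of BGJ398. MCM10 gave 3.49, 3.35 and 2.58 CPM after 7 days of BGJ398 in RT112, against 6.11, 10.5 and 8.70 CPM after 48 h of BGJ398. These groups did not overlap, with log2 changes of -1.92 (SE 0.09, adjusted p = 1.84e-10), -1.54 and -1.40. POLA1 (0.23), POLD2 (-0.04), ORC6 (-0.22), GINS3 (-0.26) and MCM3 (0.09) were the members not called. Leaving replicate 1 out of the RT112 arms left 34 of 39 called lower. In A549 the calls over all members were near or below the background shares (23.7% lower and 27.6% higher). Among them, 6 of 11 loading genes and 3 of 4 nucleotide genes were lower. Higher were 5 of 9 polymerase genes and 2 loading genes, MCM3 (0.32) and MCM5 (0.51), and the difference between roles was not tested. A549 RRM2 was at 14.3, 14.0 and 14.0 CPM after 7 days of trametinib, against 20.8, 18.5 and 19.8 CPM after 48 h, and POLA1 at 24.5, 19.9 and 19.2 CPM, against 15.1, 14.7 and 13.9 CPM. The 7-day libraries of A549 held 6.38, 6.2 and 6.24 M expected counts, against 11.86, 11.14 and 9.88 M at 48 h. Depth and time thus differ together in A549, and the part of depth was not tested.

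The members with the largest median change over the lines were GINS4, MCM5 and CDC45, and those with the smallest were MCM7, GINS2 and MCM6, whose medians hide opposite moves. MCM6 was measured at 29.2, 33.9 and 37.6 CPM after 7 days of crizotinib in H3122, against 120, 117 and 112 CPM after 48 h of crizotinib. MCM6 stood at 20.9, 19.5 and 18.8 CPM after 7 days of erlotinib in PC9, against 8.07, 7.39 and 10.7 CPM after 48 h of erlotinib. MCM6, a helicase subunit, was thus lower at 7 days in every H3122 library and higher in every PC9 library. GINS4 had 4.09, 5.35 and 6.50 CPM after 7 days of crizotinib in H3122, against 23.8, 24.3 and 20.9 CPM after 48 h of crizotinib. GINS4 held 9.19, 10.3 and 11.1 CPM after 7 days of erlotinib in PC9, against 3.44, 2.76 and 2.91 CPM after 48 h of erlotinib. GINS4, a GINS subunit, showed the same separation. CDC45 was at 12.5, 16.5 and 20.0 CPM after 7 days of crizotinib in H3122, against 85.7, 86.4 and 88.5 CPM after 48 h of crizotinib. CDC45 gave 6.89, 5.89 and 8.55 CPM after 7 days of erlotinib in PC9, against 1.37, 0.788 and 1.18 CPM after 48 h of erlotinib. CDC45 likewise had no overlap in either line. MCM7 stood at 141, 168 and 172 CPM after 7 days of crizotinib in H3122, against 321, 330 and 317 CPM after 48 h of crizotinib. MCM7 had 165, 167 and 193 CPM after 7 days of erlotinib in PC9, against 128, 123 and 117 CPM after 48 h of erlotinib. MCM7 moved less, again without overlap. MCM6 changed by -1.75 in H3122 and 1.05 in PC9, GINS4 by -2.07 and 1.61, CDC45 by -2.37 and 2.52, and MCM7 by -0.97 and 0.39. In the joint fit of all 90 libraries the 7-day change was lower than in the other 5 lines for 39 of 39 members in H3122 (background 23.0%, median -1.73) and 35 in RT112 (14.2%, median -0.81). It was higher for 38 members in PC9 (16.6%, median 1.27), 32 in A375 (14.9%) and 31 in N87 (17.5%), and A549 had 7 lower (16.7%) and 9 higher (15.6%). For RRM2 in H3122 the difference was -4.72 (SE 0.09, adjusted p = 8.79e-53).

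THZ1 alone against DMSO asked what the CDK7 inhibitor did without the targeted drug. A375 was the line in which the whole machinery fell: 39 of 39 were lower (background 28.9%), with a median of -0.92. In PC9 31 of 39 were higher (background 26.1%, median 0.38) and 2 lower (background 27.7%), POLD2 at -0.32 and LIG1 at -0.23. A549 had 17 higher (background 25.0%) and 4 lower (background 21.5%), H3122 12 lower (background 12.3%), N87 13 lower (background 16.3%) and RT112 6 lower (background 20.4%) and 7 higher (background 21.0%). Across lines no member was called, against 0.0253% of genes lower and 0.0589% higher, and the member median was -0.09. In RT112 the calls in both directions are near the background shares. No member was under an unadjusted p of 0.05 across lines, and DESeq2 called none.

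CDT1 was measured at 35.5, 35.8 and 38.2 CPM under THZ1 in A375, against 92.3, 96.5 and 88.7 CPM under DMSO. GINS2 stood at 14.2, 15.6 and 15.3 CPM under THZ1 in A375, against 33.6, 38.7 and 35.0 CPM under DMSO. MCM5 had 50.0, 63.0 and 60.2 CPM under THZ1 in A375, against 132, 120 and 120 CPM under DMSO. All THZ1 libraries were below all DMSO libraries, with log2 changes of -1.45 (SE 0.08, adjusted p = 3.58e-11), -1.36 and -1.21. POLA1 changed by -1.04, RRM2 by -1.27, MCM10 by -0.96, CDC6 by -0.78, TYMS by -0.70 and DNMT1 by -0.66. PCNA moved least in A375: PCNA held 178, 179 and 192 CPM under THZ1 in A375, against 189, 221 and 213 CPM under DMSO. The PCNA groups touched at 192 and 189 CPM, and the change was -0.30 (SE 0.06, adjusted p = 0.000256).

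ORC1, CDC6 and MCM10 were among the members that rose in PC9. ORC1 was measured at 58.4, 56.7 and 59.5 CPM under THZ1 in PC9, against 30.1, 30.7 and 30.9 CPM under DMSO. CDC6 stood at 102, 106 and 101 CPM under THZ1 in PC9, against 69.7, 70.7 and 66.2 CPM under DMSO. MCM10 had 49.4, 48.2 and 51.8 CPM under THZ1 in PC9, against 30.6, 34.0 and 31.0 CPM under DMSO. Each THZ1 library exceeded each DMSO library, with log2 changes of 0.87 (SE 0.06, adjusted p = 8.79e-11), 0.51 and 0.58. POLD2 held 200, 202 and 207 CPM under THZ1 in PC9, against 243, 251 and 236 CPM under DMSO. POLD2 was called lower in 5 of the 6 lines, as was MCM7, and PRIM1 in 4, and these 3 had the largest median changes over the lines at -0.31, -0.32 and -0.27. In RT112 POLD2 was at 130, 130 and 139 CPM under THZ1, against 166, 179 and 176 CPM under DMSO, and MCM7 at 359, 344 and 351 CPM, against 404, 425 and 405 CPM. POLE, RFC2 and RFC5 had the smallest median changes over the lines, although RFC5 changed by -0.98 in A375 and 0.25 in PC9.

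The joint fit set each line against the mean of the other 5. In A375 39 of 39 members were lower (16.5% of all genes, median -0.97), and for CDT1 the difference was -1.34 (SE 0.08, adjusted p = 4.47e-23). In PC9 37 were higher (13.7%, median 0.54), in A549 26 (11.4%) and in RT112 14 (12.7%). A375, in which all 39 members fell, is part of the mean in each of the contrasts for the other lines. H3122 had 3 lower (6.34%) and 3 higher (9.80%), and N87 5 lower (12.9%) and 5 higher (8.02%). The THZ1 dose was 50 nM in A375 and H3122, 100 nM in PC9 and RT112, 25 nM in N87 and 150 nM in A549. At the shared dose of 50 nM 39 members were lower in A375 (background 28.9%) and 12 in H3122 (background 12.3%). At 100 nM PC9 had 31 higher (background 26.1%) and 2 lower (background 27.7%). RT112 at that dose had 7 higher (background 21.0%) and 6 lower (background 20.4%), near its background shares. The lines of a pair were not tested against each other. Between lines given other doses line and dose cannot be told apart.

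Adding THZ1 to the targeted drug raised the machinery above the drug alone in 4 lines and lowered it further in N87. In PC9 39 of 39 were higher in the combination (background 33.4%), with a median of 2.21, and in RT112 38 (background 32.8%, median 1.22). In A549 31 were higher (background 20.3%, median 0.58), and in A375 27 higher (background 35.1%) and 5 lower (background 33.4%), with a median of 0.45. In N87 32 of 39 were lower (background 28.8%, median -0.83), and H3122 had 6 lower (background 14.3%) and 5 higher (background 15.3%). No member was called across lines, where 4.34% of genes were lower and 3.70% higher, and the member median was 0.56. Of the members, 5 were under an unadjusted p of 0.05, and DESeq2 called 3 higher. The shares of all genes at that p and in DESeq2 are not given here, so these counts have no background beside them.

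TYMS was measured at 82.6, 82.1 and 72.3 CPM under erlotinib with THZ1 in PC9, against 5.25, 5.72 and 5.73 CPM under erlotinib alone. CDC6 stood at 40.5, 38.7 and 35.6 CPM under erlotinib with THZ1 in PC9, against 1.12, 1.48 and 2.91 CPM under erlotinib alone. GINS2 had 19.3, 15.4 and 13.7 CPM under erlotinib with THZ1 in PC9, against 0.944, 0.985 and 0.819 CPM under erlotinib alone. The combination libraries all lay far above the erlotinib libraries, with log2 changes of 3.76 (SE 0.09, adjusted p = 2.56e-18), 4.31 and 4.05. ORC1 changed by 5.09, with 41.2, 39.8 and 38.0 CPM in the combination, against 1.03, 1.28 and 1.00 CPM under erlotinib. PCNA held 202, 192 and 190 CPM under erlotinib with THZ1 in PC9, against 40.1, 37.7 and 42.2 CPM under erlotinib alone. RRM2 was at 49.4, 49.1 and 48.0 CPM under erlotinib with THZ1 in PC9, against 4.89, 6.11 and 5.09 CPM under erlotinib alone. POLD2 gave 136, 144 and 140 CPM under erlotinib with THZ1 in PC9, against 108, 107 and 102 CPM under erlotinib alone. POLD2 rose least (0.33, SE 0.04, adjusted p = 2.47e-07), although its groups did not overlap. MCM10 changed by 4.79, MCM5 by 2.90, CDT1 by 2.42, POLA1 by 1.26 and DNMT1 by 1.15.

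RT112 showed the same direction at a smaller size. CDC6 was measured at 108, 111 and 102 CPM under BGJ398 with THZ1 in RT112, against 27.8, 19.7 and 24.1 CPM under BGJ398 alone. TYMS stood at 84.5, 80.6 and 77.7 CPM under BGJ398 with THZ1 in RT112, against 28.0, 32.7 and 30.5 CPM under BGJ398 alone. PCNA had 226, 227 and 220 CPM under BGJ398 with THZ1 in RT112, against 86.5, 101 and 104 CPM under BGJ398 alone. None of these groups overlapped, and the changes were 2.21 (SE 0.10, adjusted p = 2.9e-11), 1.46 and 1.26. POLD2 alone among the 39 did not rise in RT112, with 68.0, 69.8 and 68.4 CPM in the combination, against 66.6, 71.2 and 76.6 CPM under BGJ398 (-0.01, SE 0.04, adjusted p = 0.898). Without replicate 1 of the RT112 arms 38 of 39 were called higher. In A375 the rise was largest for TYMS and LIG1: TYMS stood at 96.9, 96.6 and 98.4 CPM in the combination, against 29, 29.8 and 25.5 CPM under vemurafenib (1.65, SE 0.06, adjusted p = 2.83e-14), and LIG1 changed by 1.63. PCNA in A375 reached 180, 178 and 176 CPM in the combination, against 60.3, 64.8 and 58.4 CPM under vemurafenib. CDT1 (-0.26), POLA1 (-0.31), GINS3 (-0.37), MCM3 (-0.23) and MCM7 (-0.42) fell further there.

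N87 went down instead. TYMS held 5.44, 5.16 and 6.33 CPM under lapatinib with THZ1 in N87, against 22.6, 20.2 and 17.4 CPM under lapatinib alone. RRM2 was at 5.17, 6.17 and 4.99 CPM under lapatinib with THZ1 in N87, against 20.5, 20.0 and 19.5 CPM under lapatinib alone. CDT1 gave 4.76, 4.39 and 4.29 CPM under lapatinib with THZ1 in N87, against 17.5, 15 and 14.5 CPM under lapatinib alone. Every combination library lay below every lapatinib library, with log2 changes of -1.86 (SE 0.12, adjusted p = 9.15e-11), -1.91 and -1.83. CDC6 changed by -1.53, MCM5 by -1.19, MCM10 by -1.46 and GINS2 by -1.26, while POLA1 (-0.22), DNMT1 (-0.13) and ORC6 (0.17) were not called. In H3122 RRM2 fell to 463, 486 and 491 CPM in the combination, against 673, 708 and 709 CPM under crizotinib (-0.53), and PCNA was at 314, 327 and 311 CPM, against 256, 270 and 272 CPM (0.26). In A549 CDC45 changed by 1.42, TYMS by 1.31 and POLD2 by -0.01, the last not called.

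**Figure D4:**
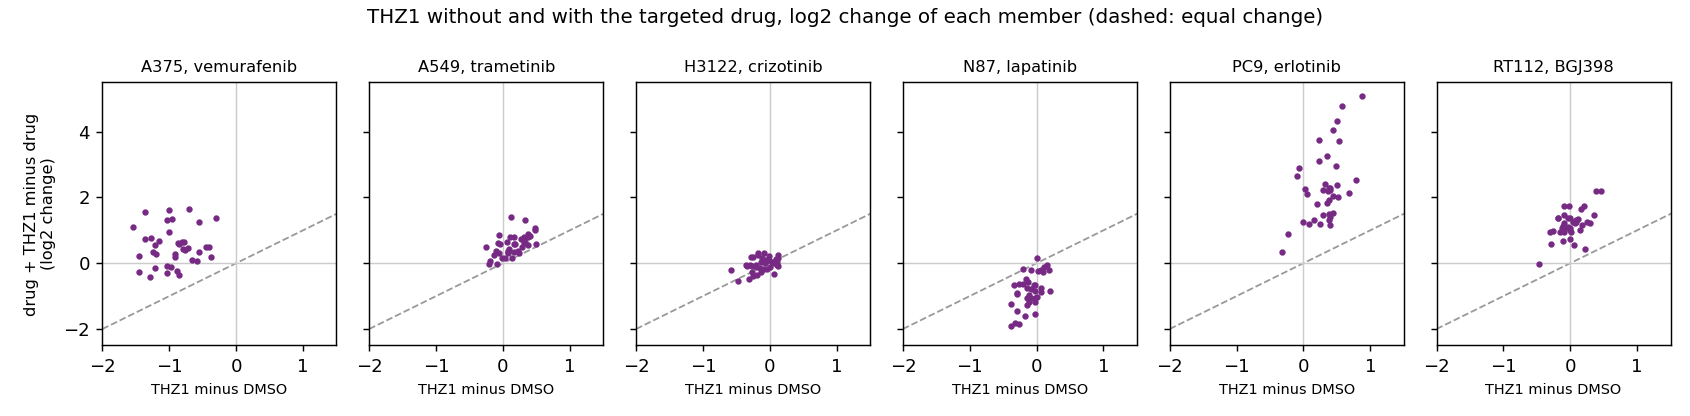
Log2 change of each of the 39 genes on adding THZ1 to the targeted drug (y axis, combination minus drug) against THZ1 alone (x axis, THZ1 minus DMSO), by line, with the line of equal change dashed. Points of PC9, RT112 and A375 lie above the dashed line, as do those of A549, while those of N87 lie mostly below it.

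The effect of THZ1 with the targeted drug was tested against its effect without it as an interaction, in which the 4 groups of libraries are separate. The interaction was positive for 39 of 39 members in A375 (background 26.7%, median 1.42), 39 in PC9 (background 22.8%, median 1.83), 38 in RT112 (background 24.7%, median 1.16) and 22 in A549 (background 15.3%, median 0.38). It was negative for 30 in N87 (background 15.5%, median -0.70). In H3122 it was positive for 5 (background 4.05%) and negative for 1 (background 3.57%). In A375 THZ1 lowered the members without vemurafenib and mostly raised them with it: RRM2 changed by -1.27 without and 0.77 with it, an interaction of 2.05 (SE 0.17, adjusted p = 1.26e-08). The members with the largest median interaction over the lines were CDC45, TYMS and MCM2, at 3.21, 3.52 and 2.46 in PC9 and -1.17, -1.59 and -0.80 in N87. POLD2, FEN1 and POLD3 had the smallest, at 0.66, 1.87 and 1.14 in PC9. Across lines none was called, nor was any other gene (0%), and 256 of 11875 genes were under an unadjusted p of 0.05, with no member among them, and DESeq2 called 0 members.

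Between lines, adding THZ1 had a higher effect than in the mean of the other 5 for 39 of 39 members in PC9 (20.0% of all genes, median 2.01) and 35 in RT112 (16.9%, median 0.62). It had a lower effect for 39 in N87 (21.0%, median -1.66) and 38 in H3122 (15.1%, median -0.75). The mean of the other 5 holds PC9 and RT112, in which the members rose. In the fit of H3122 alone the calls in both directions were near their background shares, unlike in N87, where most members fell. In A375 14 were lower (21.5%) and 7 higher (23.6%), and in A549 7 lower (14.5%) and 2 higher (12.1%). For TYMS the difference was 3.33 (SE 0.10, adjusted p = 6.39e-42) in PC9 and -3.41 (SE 0.11, adjusted p = 2.15e-38) in N87.

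Even where the combination stood above the drug alone, the machinery stayed below DMSO. Against DMSO, 39 of 39 were lower in A375 (background 31.8%), A549 (36.6%) and N87 (38.4%), 34 in RT112 (33.4%), 33 in PC9 (31.9%, with 3 higher, 31.4%) and 21 in H3122 (25.6%, with 1 higher, 24.5%). Across lines 31 were lower (background 15.4%, 15.5% higher), a count that fell to 11 without N87, 14 without A375 and 15 without A549. The median member level as a share of its DMSO mean was 66.3% in the combination in PC9, against 15.5% under erlotinib, and 67.6% in RT112, against 33.0% under BGJ398. In N87 it was 16.5% in the combination, against 28.6% under lapatinib. Counted as a share of the CPM lost to the drug, the combination held a median of 60.3% in PC9, 51.5% in RT112, 13.2% in A375 and 9.41% in A549, and -14.0% in N87, where the gap widened. These shares set the combination and the drug against the same DMSO libraries.

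RRM2, MCM10 and CDT1 stayed lowest against DMSO over the lines. RRM2 in N87 was at 5.17, 6.17 and 4.99 CPM in the combination, against 124, 120 and 129 CPM under DMSO (-4.65, SE 0.07, adjusted p = 9.22e-21), and in PC9 at 49.4, 49.1 and 48.0 CPM, against 138, 140 and 129 CPM (-1.42). TYMS in N87 changed by -3.93. ORC6, PCNA and PRIM2 were nearest to DMSO: PCNA in A375 changed by -0.39, in RT112 by -0.44 and in PC9 by -0.23, and ORC6 in PC9 by 0.36 (higher than DMSO, with 29.2, 34.4 and 31.9 CPM in the combination, against 24.6, 25.7 and 27.1 CPM).

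**Figure D5:**
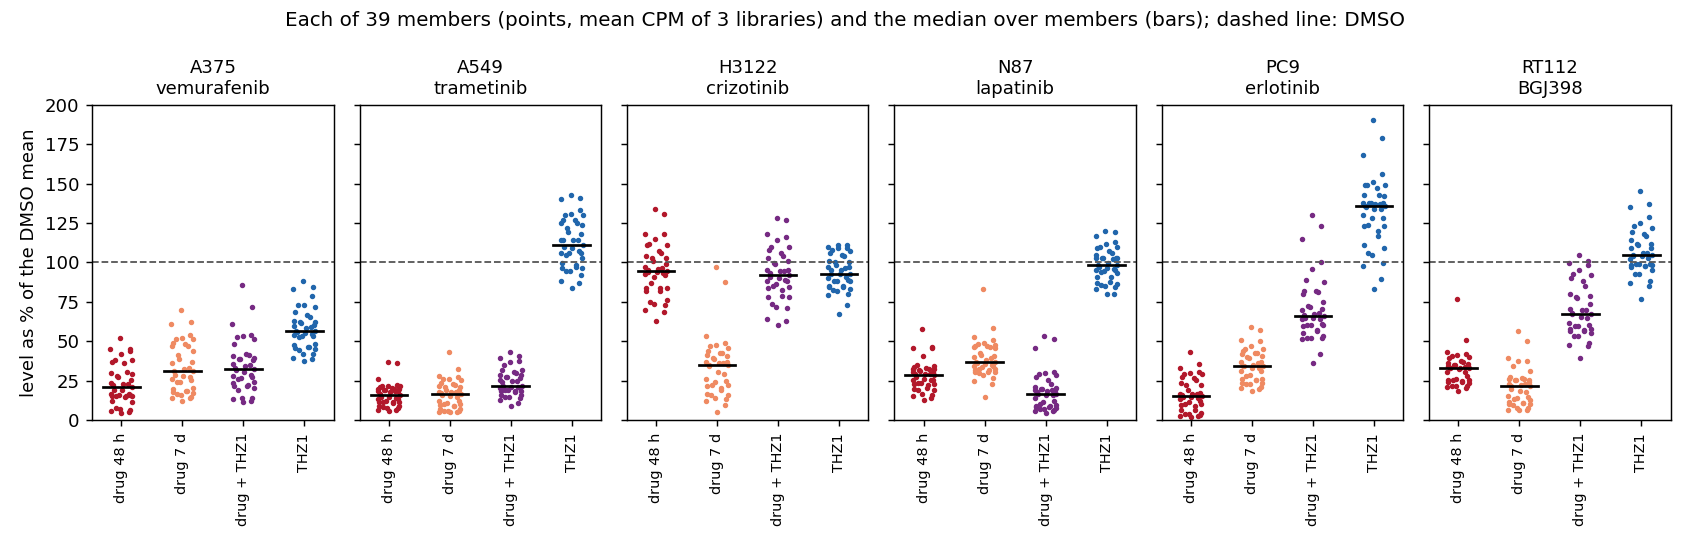
Level of each of the 39 genes as a percentage of its DMSO mean (points, mean CPM of 3 libraries) and the median over genes (bars) for the 4 treated arms of each line, with the dashed line at the DMSO mean of 100%. The median bars for the targeted drug at 48 h lie between 15.5% in PC9 and 33.0% in RT112, but at 94.6% in H3122, where the 7-day bar is at 35.1%.

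Beyond the members, little was called across lines when THZ1 was added to the drug. Of all genes tested in this comparison 3.70% were higher and 4.34% lower. Of the 33 other replisome and origin genes 3 rose, POLE3 by 0.96 (SE 0.27, adjusted p = 0.0286), POLE4 by 0.89 and ORC4 by 0.36. POLD4 fell by 0.76 on the log2 scale. POLE3 and POLE4 are accessory subunits of polymerase epsilon. RRM2B rose by 0.64 and CCND1 by 0.97, while E2F1 at 0.77, CDKN1A at 0.95 and CDKN1B at -0.22 were not called. None of the 20 mitosis genes was called, with a median of 0.58.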

How the data were processed

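RNA was extracted on RNeasy columns before NEBNext Ultra library preparation, per the labels' protocols. The values are expected counts per gene that the authors deposited, estimated by RSEM 1.2.12 with Bowtie2 2.2.1 on hg19, per the submitters' processing notes. Neither the annotation nor a strand setting is given in the sources used here. Of 53893 gene IDs 47111 matched a symbol, and the 6782 others held 1.26% of the counts. Per library, 7.83 to 13.75% of values were not whole numbers, and expected counts were rounded for the tests.

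A separate edgeR 4.0.16 model was fitted to the 15 libraries of each line (R 4.3.3, quasi-likelihood test, TMM scaling, filterByExpr), with contrasts between arms and an interaction of both drugs. Across lines, libraries of a group were summed and the 30 sums fitted with a term for line, over 11875 genes with at least 1 CPM in at least 3 libraries of every line. Each line minus the mean of the other 5 was tested in a fit of all 90 libraries (19655 genes). Benjamini-Hochberg adjustment ran over all genes tested, separately for each contrast, with calls at 0.05. Alternatives were DESeq2 1.42.0, RLE factors, library totals, no filter, only the groups compared, a replicate block and leaving out libraries or lines. The fits were tested on simulated data. CPM values use library totals without TMM.

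Replicate numbers were not used to pair the samples in the main fits. Of 16 arm pairs with 3 shared numbers, 0 had every correlation above 0.1. Over all arm pairs, those with 2 shared numbers included, the correlations ran from -0.116 to 0.282. The highest were for replicate 1 of RT112, at 0.282 between DMSO and BGJ398 at 48 h and 0.231 between BGJ398 at 48 h and 7 days. The members and gene lists were chosen with earlier results of these data known. The rule for genes given with library values named MCM5, MCM10, CDC6, CDT1, GINS2, POLA1, POLD2, PCNA, RRM2, TYMS and DNMT1, plus the 3 largest and 3 smallest median changes per comparison. The text gives the first 11 in all lines at 48 h and the others, or other comparisons, in selected lines only. Promoters were matched by symbol to RefSeq, and MCM4, MCM5, GINS4 and POLD3 had no entry.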

Additional observations from a re-analysis of the deposited data

Results flagged for a closer look

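Of 72 sets of 6 line values, 9 had a line whose gap to the nearest other line was large beside the whole range (Dixon's test). Chance gives about 1 in 20 such sets where sets are independent. These sets share lines and groups, and their genes move together, so the count cannot be set against that rate. H3122 stood apart under the targeted drug at 48 h, with a median log2 change over the members of -0.18 and of -0.11 for PCNA. It also stood apart at 7 days against 48 h, with -1.52 for POLA1 and -0.93 for POLD2. A375 stood apart under THZ1, with log2 changes of -1.21 for MCM5, -1.45 for CDT1, -1.36 for GINS2 and -1.04 for POLA1. N87 stood apart in the combination against DMSO, with -3.93 for TYMS.

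The change of one line was tested against the mean of the other 5 in edgeR's fit of all 90 libraries. Each count of members is given with the share of all genes that differed in the same direction. The mean of the other lines can hold lines that moved strongly. A line can therefore differ from that mean with calls near background in its own fit. For the targeted drug at 48 h against DMSO, the members that differed numbered 23 lower (20.1%) and 4 higher (20.2%) in A375. They numbered 35 lower (21.2%) in A549, 39 higher (20.0%) in H3122, and 12 lower (19.9%) and 9 higher (15.3%) in N87. PC9 had 32 lower (19.6%) and 2 higher (17.6%), and RT112 had 5 lower (16.9%) and 17 higher (18.9%). For 7 days against 48 h of drug, the members that differed numbered 32 higher (14.9%) in A375 and 7 lower (16.7%) and 9 higher (15.6%) in A549. They numbered 39 lower (23.0%) in H3122, 31 higher (17.5%) in N87, 38 higher (16.6%) in PC9 and 35 lower (14.2%) in RT112. For THZ1 against DMSO, the members that differed numbered 39 lower (16.5%) in A375, 26 higher (11.4%) in A549 and 3 lower (6.34%) and 3 higher (9.8%) in H3122. They numbered 5 lower (12.9%) and 5 higher (8.02%) in N87, 37 higher (13.7%) in PC9 and 14 higher (12.7%) in RT112. For the combination against the drug alone, the members that differed numbered 14 lower (21.5%) and 7 higher (23.6%) in A375 and 7 lower (14.5%) and 2 higher (12.1%) in A549. They numbered 38 lower (15.1%) in H3122, 39 lower (21.0%) in N87, 39 higher (20.0%) in PC9 and 35 higher (16.9%) in RT112. Several small counts, such as 4 higher in A375 and 5 lower in RT112 at 48 h, lay below their shares.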

How the results depend on the processing

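No called value of a named member changed sign under any alternative run, and most counts of members called stayed within 1.5 times. In H3122, THZ1 called 19 lower when only the groups compared were fitted (12 as reported), and library totals gave 11 lower under crizotinib (18). The interaction in H3122 (5 higher) became 3 with RLE factors, 2 with library totals and 12 with only the groups compared, and 1 to 4 with a library left out. In N87, THZ1 called 7 lower with library totals and 8 to 12 with a library left out (13). Across lines, THZ1 called 1 with only the sums compared (0), the combination against the drug alone called 3 higher in DESeq2 and 0 to 4 with a line left out (4 without H3122, 1 without N87), and the combination against DMSO called 11 to 35 with a line left out (31). For H3122 minus the other lines under THZ1 library totals gave 7 lower (3), and for RT112 under the targeted drug 26 higher (17). The cause was not tested. Library totals moved the median of all genes by up to 0.17 on the log2 scale. The replicate block, with numbers that share no known source, gave 39 lower in A375 under vemurafenib and moved no count of calls by over 1.5 times. Genes near 1 CPM, such as MCM10 under erlotinib in PC9, rest on few reads, and 3 libraries a group limit the precision.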
